A study of Mus musculus with 18 samples.

Results

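Mrgprd, Mrgprb4, Mrgpra3 and Mrgprx1 encode Mas-related G protein-coupled receptors, a family of receptors carried mainly by small sensory neurons of the class called non-peptidergic. They are 4 of the 17198 genes in the table analysed, and were chosen by symbol because they had been seen to fall with time in culture in these same data. The data are RNA sequencing of neurons from the dorsal root ganglia (DRG) of mice, the clusters of sensory cell bodies next to the spinal cord, grown in culture. The 18 cultures fell into 6 groups of 3: wild-type (WT) and heterozygous Dynlrb1(tm1a/+) (HET) cultures collected after 12, 24 and 48 h. Dynlrb1 encodes a light chain of dynein, a motor protein that moves cargo from the axon to the cell body, and tm1a is a targeted knockout-first allele, so HET cultures keep 1 unaltered copy of the gene. No drug, injury or further allele is given for any group. The replicates are described as biological repeats, without saying whether each came from a separate animal, so p-values measure the spread between these cultures. RNA was taken from whole cultures, and a bulk value cannot tell fewer cells of a type from less RNA per cell.

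Non-peptidergic neurons are C-fibre neurons of the skin that sense touch, heat and itch-causing compounds, and their Mas-related receptors set what each subclass responds to. The name of the class is historical, and its itch subclasses do make peptides such as somatostatin. Mrgprd is the receptor for beta-alanine and marks the most abundant of these subclasses. Mrgpra3 is the receptor for chloroquine and marks itch neurons. Mrgprx1, earlier called Mrgprc11, responds to itch-causing peptides cut from proenkephalin and lies in many of the same itch neurons. Mrgprb4 marks neurons that respond to gentle stroking of hairy skin. The receptors can couple to Gq-type G proteins and phospholipase C beta, with Trpa1 as a channel downstream of Mrgpra3 and Mrgprx1. The transcription factor Runx1 sets up expression of the receptors during development.

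The 4 genes lie on chromosome 7 of GRCm38 (GENCODE M21), the assembly also called mm10. Mrgpra3 (ENSMUSG00000078698; 47588950 to 47601372), Mrgprx1 (ENSMUSG00000070552; 48020971 to 48027597) and Mrgprb4 (ENSMUSG00000070550; 48198070 to 48199288) sit in the Mrgpra, Mrgprb and Mrgprx cluster on the minus strand. Mrgprd (ENSMUSG00000051207; 145314835 to 145324086) lies far from them, on the plus strand. Mrgprb4 has 1 exon, Mrgprd and Mrgprx1 have 2 exons with 1 coding, and Mrgpra3 has 2 coding exons. How reads from look-alike genes were counted is not given in the sources used here. Between pairs of the 4, coding sequence identity was 60.9% to 66.6%. Each had a closer relative among the other family genes of the table: Mrgprb5 was 84.5% identical to Mrgprb4, Mrgpra9 was 85.3% identical to Mrgpra3 and 68.3% identical to Mrgprx1, and Mas1 was 62.8% identical to Mrgprd. The stretches below, coding bases 390 to 479 of Mrgpra3 and Mrgpra9, 780 to 869 of Mrgprb4 and 783 to 872 of Mrgprb5, are shown because a read that falls there tells the genes apart only by the few bases in capitals, 3 for the first pair and 4 for the second. They come from the GENCODE M21 transcripts.
Mrgpra3: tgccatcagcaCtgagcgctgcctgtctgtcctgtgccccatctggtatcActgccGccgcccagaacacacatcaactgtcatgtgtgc
Mrgpra9: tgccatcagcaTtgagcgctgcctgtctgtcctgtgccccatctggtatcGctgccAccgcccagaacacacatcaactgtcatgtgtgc
Mrgprb4: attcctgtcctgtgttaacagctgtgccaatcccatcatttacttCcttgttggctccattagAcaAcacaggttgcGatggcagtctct
Mrgprb5: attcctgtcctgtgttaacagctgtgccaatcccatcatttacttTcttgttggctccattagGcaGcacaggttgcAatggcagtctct
Over the whole transcript, 0 of 3095 windows of 50 bases in Mrgprd also occurred in a transcript of another gene. The same was true of 17 of 1170 windows (1.45%) in Mrgprb4, 89 of 1246 (7.14%) in Mrgpra3 and 66 of 1131 (5.84%) in Mrgprx1. Mrgpra3 shared most of these windows with Mrgpra4, Mrgpra14, Gm5734 and Mrgpra6, while its longest coding run shared with Mrgpra9 was 42 bases. Mrgprx1 shared most with Gm18348, Mrgprc4-ps, Mrgprc1-ps and Gm9322, and Mrgprb4 with Mrgprb12-ps and Mrgprb5. No window of 100 bases in any of the 4 was shared. Mrgpra2a and Mrgpra2b shared 87.5% and 85.3% of their 50-base windows, so values of those 2 relatives are uncertain.

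The bases just before the annotated start are shown for the 3 genes matched in the RefSeq promoter table (GRCm38.p6), because Mrgprd and Mrgprb4 varied together across the cultures while Mrgprx1 was less like them. Mrgpra3 was not matched. The sequences are Mrgprd chr7:145314585-145314834 on the plus strand, Mrgprb4 chr7:48199289-48199428 and Mrgprx1 chr7:48027598-48027847 on the minus strand. Capitals mark the one TATA box.
Mrgprd: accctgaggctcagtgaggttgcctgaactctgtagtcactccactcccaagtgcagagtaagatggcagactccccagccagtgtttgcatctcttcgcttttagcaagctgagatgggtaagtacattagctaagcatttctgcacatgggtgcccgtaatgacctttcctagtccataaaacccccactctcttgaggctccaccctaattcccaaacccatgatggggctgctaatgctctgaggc
Mrgprb4: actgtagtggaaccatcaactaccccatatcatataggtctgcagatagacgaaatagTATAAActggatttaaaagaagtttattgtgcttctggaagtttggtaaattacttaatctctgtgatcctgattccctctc
Mrgprx1: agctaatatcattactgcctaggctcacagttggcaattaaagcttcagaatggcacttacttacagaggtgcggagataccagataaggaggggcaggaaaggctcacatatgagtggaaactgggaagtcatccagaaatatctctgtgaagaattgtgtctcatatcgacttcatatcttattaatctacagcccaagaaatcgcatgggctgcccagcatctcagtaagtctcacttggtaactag
The RUNX core TGTGGT, searched on both strands of the 300-base windows from 250 bases before to 50 after the RefSeq start, was found in 0 of these 3 and in 16.9% of 27025 promoters. The TATA box TATAAA, searched the same way, was found in 1 of the 3 and in 14.2% of all promoters. A match here is a description of letters, not of a binding site.

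All values below are the authors' normalized counts, adjusted so that every culture has nearly the same total, or differences of log2(normalized count + 1). Sequencing depth per culture is unknown, since the deposited values were already adjusted. Dynlrb1 itself was lower in HET than in WT by 0.78, 0.86 and 0.84 on the log2 scale at 12, 24 and 48 h (limma, adjusted p = 0.0655, 0.0390 and 0.0501), and by 0.83 over the 3 times (adjusted p = 2.85e-05). One library stood apart. Cultures were placed on a scale set by 8095 genes, those called from 12 to 48 h in WT, with the receptors left out. It runs from 0 at the mean of WT at 12 h to 1 at the mean of WT at 48 h. On it HET 48 h replicate 3 lay at 0.264, while the other 2 HET cultures of 48 h lay at 0.753 and 0.639. WT cultures of 24 h lay at 0.277 to 0.374, and HET cultures of 24 h at 0.518, 0.291 and 0.429, all above that replicate. The WT cultures of 48 h lay at 1.02, 1.16 and 0.820, and every HET culture of 48 h lay below them, not only replicate 3. The genes were picked for their change in WT, which by itself favours a smaller change in HET. The scale therefore cannot show whether HET as a group differed from WT at 48 h. What part the position of the cultures has in the receptor differences at 48 h was not tested. The effect of HET 48 h replicate 3 on the receptors at 48 h in HET is given beside those values. Neuronal markers were present: none of 24 other non-peptidergic genes had a mean under 10 in any group. Tubb3, the neuronal tubulin, held 63599 ± 6190 normalized counts in WT at 12 h (SD, n = 3). Nor did any of 13 satellite glia and Schwann cell, 8 macrophage or 10 fibroblast and endothelial markers have a mean under 10. Of all 17198 genes, 12477 had a mean of at least 100 normalized counts, so presence at this level does not set 1 cell type apart.

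Mrgprd had the highest level per length of the 4 receptors at 12 h and was lower at each later time in WT. Here and below, values are in the order of replicates 1, 2 and 5 at 12 and 24 h and of replicates 1, 2 and 3 at 48 h. The WT cultures held 3150, 5521 and 6167 normalized counts at 12 h and 1845, 1611 and 2239 at 24 h, and 198, 73.1 and 381 at 48 h. The 3 times did not overlap. On the log2 scale the difference from 12 h was −1.34 at 24 h and −4.74 at 48 h (SE 0.68, n = 3 cultures per group), the latter a 26.7-fold lower level. In HET, Mrgprd held 5544, 13025 and 7854 normalized counts at 12 h and 1069, 2540 and 1516 at 24 h, again without overlap. At 48 h the HET cultures held 618, 839 and 6163. The first 2 lay below every 24 h culture of HET, and replicate 3, the library that stood apart, lay above one of the 12 h cultures. The HET difference from 12 to 48 h was −2.49 (SE 0.68) with that library and −3.52 without it. By group mean the order was HET 12 h, WT 12 h, HET 48 h, WT 24 h, HET 24 h and WT 48 h, and only the step to WT 48 h separated neighbours whose ranges did not overlap. Without HET 48 h replicate 3, HET 48 h came between HET 24 h and WT 48 h and its range was separate from both. These changes with time chose the gene, so they are given without a test.

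Mrgprb4 had the largest fitted difference of the 4 in WT, within its error of that of Mrgprd. It held 131, 210 and 160 normalized counts at 12 h in WT and 37.3, 40.0 and 82.3 at 24 h, and 3.74, 0.895 and 12.3 at 48 h. The difference from 12 to 48 h was −5.07 (SE 0.86). In HET it held 333, 881 and 295 at 12 h and 17.7, 83.2 and 64.9 at 24 h, and 4.50, 13.9 and 95.3 at 48 h. All 3 HET cultures of 12 h lay above all 3 WT cultures of 12 h. The HET difference was −3.24 at 24 h and −4.48 at 48 h, or −5.62 at 48 h without replicate 3. In the order of group means, HET 12 h was separate from WT 12 h and WT 12 h from HET 24 h, whereas HET 24 h, WT 24 h, HET 48 h and WT 48 h overlapped each with the next. The order was the same without HET 48 h replicate 3, but WT 24 h was then separate from HET 48 h.

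Mrgpra3 was also lower in WT at each later time. The WT cultures held 98.3, 158 and 137 normalized counts at 12 h and 28.9, 21.9 and 72.1 at 24 h, and 2.98, 1.64 and 16.2 at 48 h. The difference from 12 to 48 h in WT was −4.52 (SE 0.77). The HET cultures held 217, 456 and 192 at 12 h and 11.6, 55.8 and 39.1 at 24 h, and 16.0, 21.3 and 126 at 48 h. Here too the 12 h cultures of HET all lay above those of WT, and HET 48 h replicate 3 lay far above the 2 others of its group. The HET difference was −3.13 at 24 h and −2.88 at 48 h, or −3.79 at 48 h without that replicate. From 24 to 48 h in HET the difference was 0.25 for Mrgpra3 and −1.24 for Mrgprb4 (SE 0.77 and 0.86), or −0.66 and −2.38 without that replicate. By group mean, HET 12 h was separate from WT 12 h, and WT 12 h, HET 48 h, WT 24 h, HET 24 h and WT 48 h overlapped each with the next. Without HET 48 h replicate 3, HET 48 h came between HET 24 h and WT 48 h, and WT 12 h was separate from WT 24 h.

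Mrgprx1 went against the description by which it was chosen: it was lower at 24 h than at 12 h in both genotypes. By 48 h it was back within its 12 h range in 2 of 3 cultures of each genotype. In WT it held 98.3, 131 and 220 normalized counts at 12 h and 45.2, 35.1 and 72.2 at 24 h, and 111, 47.3 and 120 at 48 h. In HET it held 187, 400 and 235 at 12 h and 14.0, 54.3 and 56.5 at 24 h, and 335, 236 and 144 at 48 h. The 24 h cultures lay below all 12 h cultures of the same genotype, and in HET they also lay below all 48 h cultures. In WT the 24 and 48 h ranges overlapped, since replicate 2 at 48 h lay within the 24 h range. From 12 to 24 h the difference was −1.52 in WT and −2.85 in HET (SE 0.51), and from 24 to 48 h it was 0.81 in WT and 2.64 in HET, or 2.96 in HET without HET 48 h replicate 3. From 12 to 48 h it was −0.71 in WT and −0.21 in HET, the latter 0.11 without that culture. That replicate was the lowest of its group for Mrgprx1 and the highest for the other 3 receptors. Each group overlapped with the next in the order HET 12 h, HET 48 h, WT 12 h, WT 48 h, WT 24 h and HET 24 h, and HET 48 h came first without its replicate 3.

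**Figure D1:**
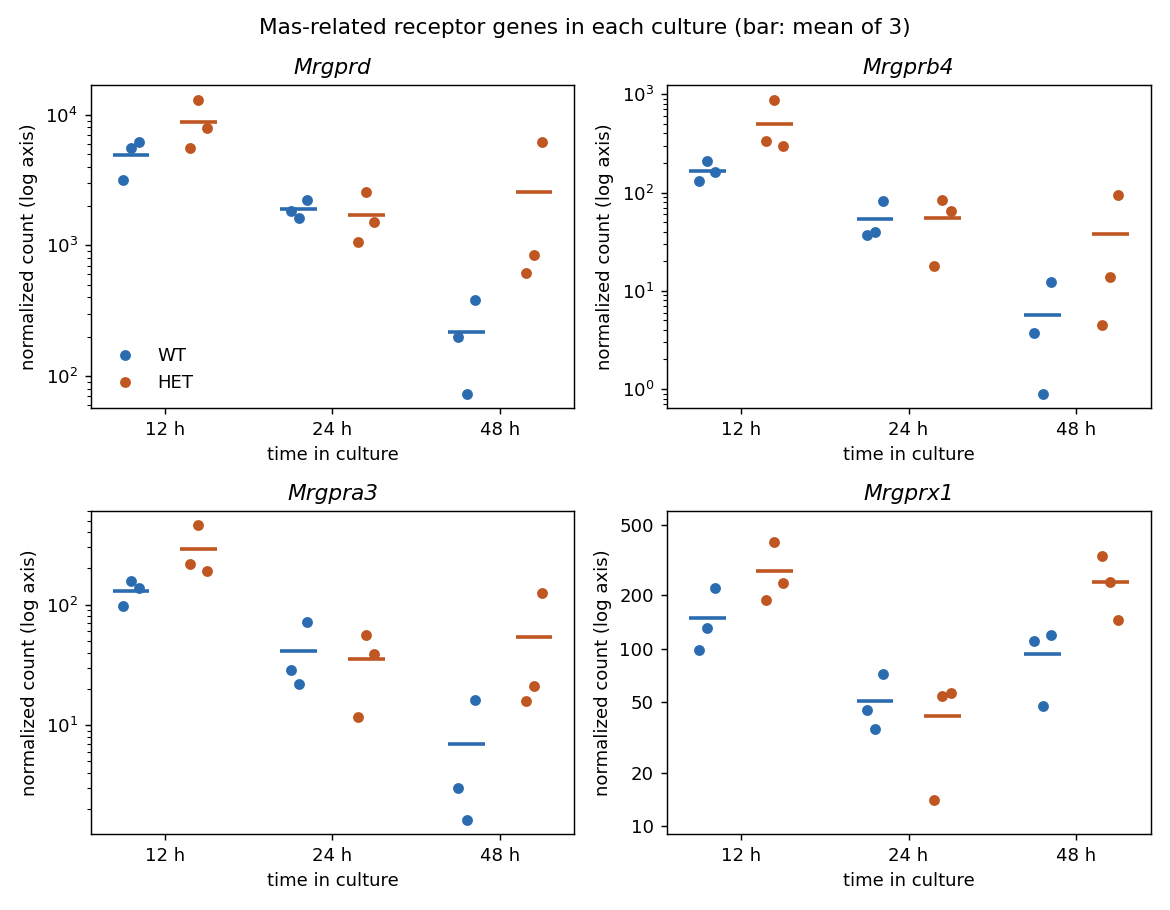
Normalized counts of the 4 receptor genes (vertical log axes) in each culture by time (horizontal axis), WT in blue and HET in orange, with a bar at the mean of 3 cultures. Mrgprd, Mrgprb4 and Mrgpra3 are lowest in WT at 48 h, and Mrgprx1 in HET is lower in every 24 h culture than in any 48 h culture.

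All 4 receptors had 24 h cultures below every 12 h culture in both genotypes, which held for 8.94% of all genes in WT and 13.0% in HET. From 12 to 48 h the groups did not overlap for Mrgprd, Mrgprb4 and Mrgpra3 in WT, against 20.7% of all genes, and for Mrgprb4 and Mrgpra3 in HET, against 8.12%. These contrasts chose the genes. The median of all genes moved by 0.11 in WT and 0.10 in HET from 12 to 48 h on the log2 scale, and by 0.01 in both when the authors' other set of adjusted columns was used, and each receptor's difference from 12 to 48 h kept its direction on either scale.

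The deposited FPKM values, which are per length of transcript, allow levels to be set between genes. At 12 h in WT, Mrgprd stood at 38.2 ± 12.3 FPKM (SD, n = 3), against 4.17 ± 0.997 for Mrgprb4, 3.05 ± 1.29 for Mrgprx1 and 2.44 ± 0.562 for Mrgpra3. In HET at 12 h the levels were 68.1 ± 29.6 for Mrgprd, 12.5 ± 8.18 for Mrgprb4, 5.60 ± 2.28 for Mrgprx1 and 5.37 ± 2.71 for Mrgpra3. At 48 h in WT the order had changed: Mrgprx1 stood at 1.90 ± 0.812 FPKM and Mrgprd at 1.68 ± 1.20, with ranges of 0.966 to 2.46 and 0.565 to 2.95 that overlap. Mrgprb4 and Mrgpra3 had fewer than 1 FPKM there, at 0.141 ± 0.149 and 0.129 ± 0.150. In HET at 48 h Mrgprd stood at 19.6 ± 24.3, Mrgprx1 at 4.87 ± 1.95, Mrgpra3 at 1.01 ± 1.15 and Mrgprb4 at 0.945 ± 1.25 FPKM. Replicate 3 carried most of these means except that of Mrgprx1. Mrgprd stood at 4.78, 6.48 and 47.6 FPKM in the 3 cultures, Mrgpra3 at 0.296, 0.395 and 2.34, Mrgprb4 at 0.112, 0.345 and 2.38, and Mrgprx1 at 6.84, 4.82 and 2.95. Without replicate 3 the mean of the 2 others was 5.63 for Mrgprd, 0.346 for Mrgpra3, 0.229 for Mrgprb4 and 5.83 for Mrgprx1, so that Mrgprd was no longer above Mrgprx1.

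Whether the Dynlrb1 allele went with a different receptor level was asked at each time. At 48 h all 4 receptors were higher in HET by group mean, but none passed the threshold of an adjusted p of 0.05 in the fit without a replicate block. The log2 difference was 3.05 for Mrgprd (SE 0.68; limma, adjusted p = 0.0502), 2.68 for Mrgpra3 (adjusted p = 0.0714), 2.01 for Mrgprb4 (adjusted p = 0.183) and 1.38 for Mrgprx1 (adjusted p = 0.129). HET and WT cultures did not overlap for Mrgprd and Mrgprx1, which held in the higher direction for 9.57% of all genes. Limma called 0.0% of all 17198 genes at this time, with 3782 genes at an unadjusted p under 0.05. An exact two-sided permutation test of each gene gave p = 0.1 for Mrgprd and Mrgprx1, the smallest that 3 against 3 cultures allow, and p = 0.2 for Mrgprb4 and Mrgpra3. Mrgprd was known beforehand to be much lower in WT at 48 h. All 4 genes were chosen for falling with time in each genotype. The HET against WT tests use the same values and are not free of that choice.

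The labels do not pair cultures by number. The 3 same-numbered pairs of WT and HET cultures of 48 h deviated together (r = 0.32, 0.21 and 0.46 over all genes). Over the 9 pairs of all times the mean r was 0.17, from −0.21 to 0.46. Deviations within a group are not independent, and differently numbered pairs were not compared. The block is shown here because of r values from these same data, so its p-values carry that choice. With the replicate number as a block, the differences were the same in size and 3 passed: Mrgprd (limma, adjusted p = 0.00105), Mrgpra3 (adjusted p = 0.00296) and Mrgprb4 (adjusted p = 0.0233). Mrgprx1 did not (adjusted p = 0.0555). These p-values are not free of the choice of the genes for their fall with time. In that fit 5.04% of all genes were called higher in HET. With the block and without HET 48 h replicate 3, a setting chosen after seeing the data, the differences were 2.57 for Mrgprd, 2.58 for Mrgpra3, 1.94 for Mrgprx1 and 1.59 for Mrgprb4 (limma, adjusted p = 0.0106, 0.0279, 0.0455 and 0.179). WT 48 h replicate 3, the highest WT culture of 48 h for each receptor, then has no partner and drops out of the estimate too. Only replicates 1 and 2 are compared in that setting.

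The 48 h difference rested in part on 1 library. Without the block and without HET 48 h replicate 3 it was 2.02 for Mrgprd (limma, adjusted p = 0.251), 1.78 for Mrgpra3 (adjusted p = 0.354) and 0.88 for Mrgprb4 (adjusted p = 0.719), whereas Mrgprx1 stood at 1.70 (adjusted p = 0.252). In the other direction, Mrgprd passed the threshold when WT 48 h replicate 3, HET 12 h replicate 2, HET 24 h replicate 1, or HET 48 h replicate 1 or 2 was left out (log2 3.05 to 3.68), and with quantile normalization (3.13, adjusted p = 0.0430). Mrgpra3 passed it without WT 48 h replicate 3 (3.48) or HET 48 h replicate 1 (3.23). In the authors' deposited table, the HET against WT log2 fold change at 48 h was 3.54 for Mrgprd with an adjusted p of 7.53e-05. The authors' deposited table gave 2.95 for Mrgpra3 (adjusted p = 0.00489), 2.72 for Mrgprb4 (adjusted p = 0.0181) and 1.36 for Mrgprx1 (adjusted p = 0.0428).

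At 12 h the receptors were also higher in HET by group mean, and HET 12 h replicate 2 was the highest of all 18 cultures for each of them. The log2 difference was 1.43 for Mrgprb4, 1.05 for Mrgpra3, 0.88 for Mrgprx1 and 0.80 for Mrgprd, and none passed (limma, adjusted p = 0.632, 0.683, 0.615 and 0.717). HET and WT did not overlap for Mrgprb4 and Mrgpra3, against 7.07% of all genes, and limma called 0.00581% of genes at this time. At 24 h the genotypes overlapped for every receptor. The differences there were −0.23 for Mrgprd, −0.11 for Mrgprb4, −0.27 for Mrgpra3 and −0.45 for Mrgprx1, each with a limma adjusted p of 1, and 0.00581% of genes were called. Mrgpra3, Mrgprx1 and Mrgprb4 were known beforehand to be much lower in HET at 24 h than at 12 h. Averaged over the times the difference was 1.21 for Mrgprd (SE 0.39), 1.15 for Mrgpra3 (SE 0.44), 1.11 for Mrgprb4 (SE 0.49) and 0.60 for Mrgprx1 (SE 0.29), with adjusted p of 0.310, 0.313, 0.347 and 0.381 by limma, which called 0.0174% of genes. Without HET 48 h replicate 3 these averages were 0.86, 0.85, 0.73 and 0.71 (limma, adjusted p = 0.471, 0.498, 0.556 and 0.490). The exact permutation test within times gave unadjusted p = 0.02975 for Mrgprd, 0.06075 for Mrgpra3, 0.0725 for Mrgprb4 and 0.13125 for Mrgprx1, among 16 such tests in all, where 0.00025 is the smallest possible. The change from 12 to 48 h differed between genotypes (HET minus WT) by 2.25 for Mrgprd (SE 0.96), 1.64 for Mrgpra3 (SE 1.09), 0.59 for Mrgprb4 (SE 1.21) and 0.50 for Mrgprx1 (SE 0.72), values given without a test because the genes were picked for these changes. Without HET 48 h replicate 3 they were 1.22 for Mrgprd, 0.73 for Mrgpra3, −0.55 for Mrgprb4 and 0.82 for Mrgprx1 (SE 0.70, 0.97, 1.004 and 0.74), so that the sign for Mrgprb4 turned.

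Across the 18 cultures, 3 of the receptors varied together. On the log2(normalized count + 1) scale, Pearson's r was 0.96 between Mrgprd and Mrgprb4, 0.97 between Mrgprd and Mrgpra3 and 0.97 between Mrgprb4 and Mrgpra3. After the group means were taken away, the deviations still had an r of 0.93, 0.90 and 0.96, so the cultures of 1 group also ranked alike. Mrgprx1 was less like them, with an r of 0.36 with Mrgprd, 0.33 with Mrgprb4 and 0.49 with Mrgpra3, and deviations of 0.25, 0.33 and 0.42. Without HET 48 h replicate 3 the deviations of Mrgprx1 had an r of 0.77, 0.75 and 0.79 with those 3 receptors, while its r over the 17 cultures was 0.35, 0.33 and 0.48. The other 3 pairs then had an r of 0.97 each, and deviations of 0.88, 0.85 and 0.94. These cultures share their group, time and normalization, so the coefficients describe the table and carry no test.

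**Figure D2:**
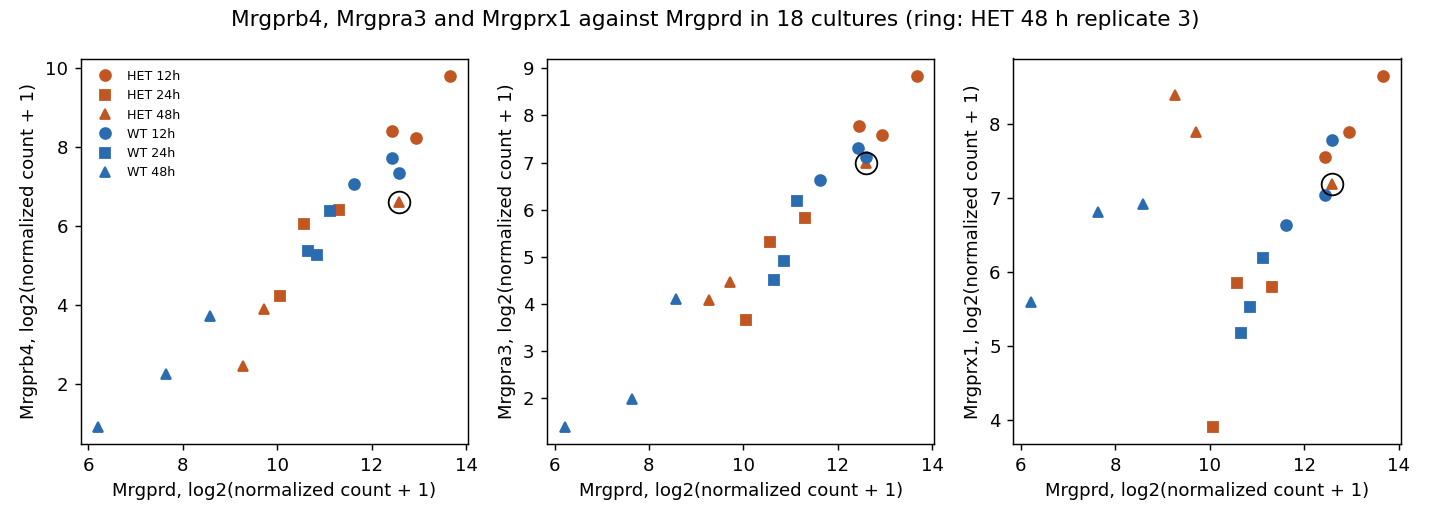
Mrgprb4, Mrgpra3 and Mrgprx1 (vertical axes) against Mrgprd (horizontal axes) on the log2(normalized count + 1) scale, 1 point per culture, coloured by genotype and shaped by time. Mrgprb4 and Mrgpra3 lie along a line with Mrgprd (r = 0.96 and 0.97). For Mrgprx1 the 48 h cultures lie above the trend of the others, except HET 48 h replicate 3 (ring), which lies near the 12 h cultures.

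Among genes with a mean of at least 100 normalized counts, those most like Mrgprd over the 18 cultures were Tmem255a (r = 0.992), Dkk3 (0.991), Kcnt1 (0.988), Car8 (0.988) and Cyp2j12 (0.987). Dkk3 encodes a secreted Dickkopf protein and Kcnt1 a sodium-activated potassium channel. For Mrgprb4 they included Caly (0.976), 2900097C17Rik (0.975), Ngb (0.973) and Gria4 (0.973), which include neuroglobin and an AMPA-type glutamate receptor subunit. For Mrgpra3 they were Chia1 (0.984), Scn2b (0.984), Ctnna2 (0.983), Cadps (0.981) and Trim37 (0.981), among them a sodium channel beta subunit and a neuronal alpha-catenin. For Mrgprx1 they were Prkg1 (0.980), the cGMP-dependent protein kinase, Agfg2 (0.972), Ccdc141 (0.971), Necab1 (0.968) and Hsbp1l1 (0.966).

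Of 18 other family symbols looked for, Mas1 included, 9 were in the table. From 12 to 48 h in WT, 5 of the 9 fell and 1 rose past the threshold, in a comparison where limma called 47.1% of all genes (17.1% lower, 30.0% higher). Mrgprb5, the nearest relative of Mrgprb4, fell by 3.66 on the log2 scale (SE 0.64; limma, adjusted p = 2.83e-04). Its WT cultures held 70.8, 122 and 99.0 normalized counts at 12 h, 71.9, 71.3 and 104 at 24 h, and 7.05, 4.02 and 9.77 at 48 h, so the 12 and 24 h ranges overlapped and 48 h stood apart. Mrgpra2a fell by 2.35, Mrgprh by 1.72, Mrgpra2b by 1.38 and Mrgpra1 by 1.29 (adjusted p = 1.10e-04, 0.00238, 0.00694 and 0.00333, limma). Mrgpra2a and Mrgpra2b share most of their sequence, so their 2 calls are uncertain as separate results. Mrgpre, a family gene of broader neuronal expression, went the other way: it held 431, 244 and 412 normalized counts at 12 h and 1055, 876 and 1189 at 48 h in WT, and rose by 1.55 (SE 0.23; limma, adjusted p = 1.03e-04). Mrgpra9, Mrgprf and Mas1 did not pass, with differences of −1.24, −0.38 and −0.36. From 12 to 24 h in WT limma called 3.62% of genes and 0 of these 9.

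In HET, 3 of the 9 fell by 24 h, when 5.76% of all genes were called lower, with log2 differences of −2.21 for Mrgprb5, −1.54 for Mrgpra2b and −1.44 for Mrgpra1 (limma, adjusted p = 0.0234, 0.0107 and 0.00584). That count was 1 without HET 12 h replicate 2 or without HET 24 h replicate 1. By 48 h, when 3.62% were called lower and 10.6% higher, Mrgprb5 fell by 3.21, Mrgpra2b by 1.56 and Mrgpra2a by 1.51, and Mrgpre rose by 1.36 (limma, adjusted p = 0.0124, 0.0184, 0.0174 and 0.0121). The count of 3 lower genes and 1 higher gene was the same without HET 48 h replicate 3, and both counts were 0 without HET 12 h replicate 2, HET 48 h replicate 1 or HET 48 h replicate 2. Between genotypes limma called 0 of the 9 at 12, 24 or 48 h, with 2, 0 and 3 of them at an unadjusted p under 0.05, beside 8.41%, 1.15% and 22.0% of all genes. With the replicate block 2 of the 9, Mrgprb5 and Mrgpra9, were called higher in HET at 48 h (log2 1.84 and 1.67). With HET 48 h replicate 3 also left out, which drops its WT partner too, 0 were. Mrgprb5 was the family gene whose course was most like that of Mrgprb4 among the 9, with an r of 0.97 over the 18 cultures, and Mrgpre ran against Mrgprd with an r of −0.78.

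**Figure D3:**
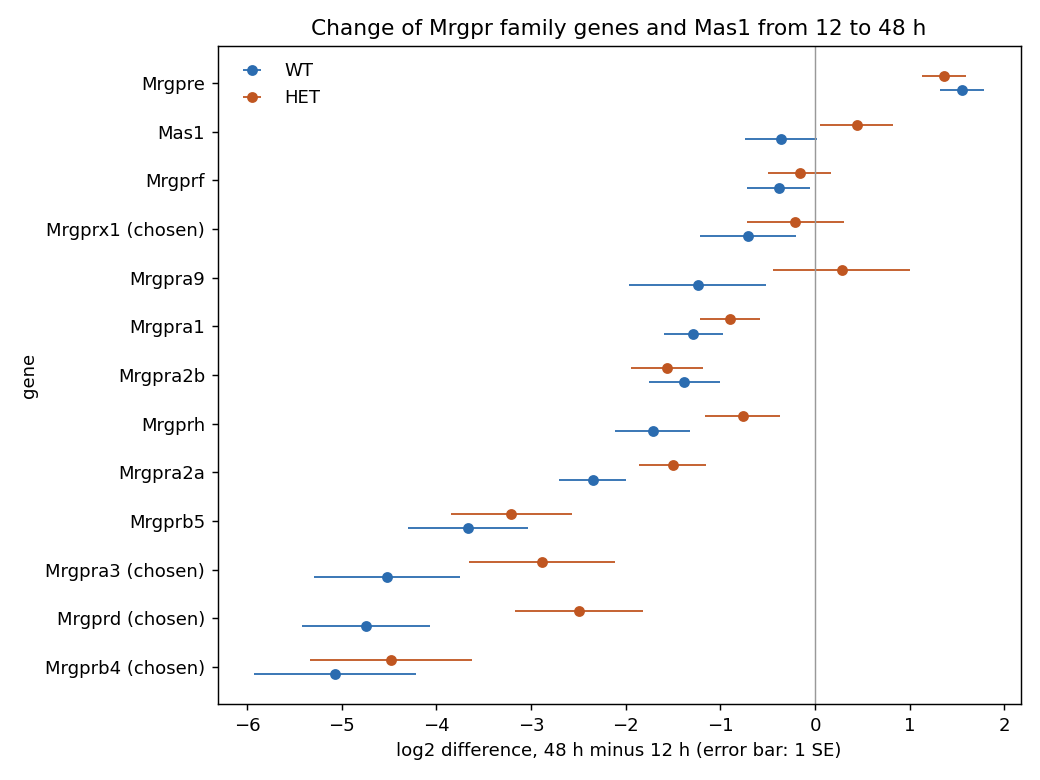
Log2 difference from 12 to 48 h (horizontal axis, 48 h minus 12 h, bars of 1 SE) for the 4 chosen receptors and the 9 other family genes measured, WT in blue and HET in orange. Mrgprb4, Mrgprd, Mrgpra3 and Mrgprb5 lie farthest to the left in WT, at −5.07, −4.74, −4.52 and −3.66, and Mrgpre lies to the right of 0 in both genotypes.

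Other genes known to mark non-peptidergic neurons were also mostly lower at 48 h in WT. From 12 to 48 h in WT, 16 of 24 fell and 0 rose (17.1% of all genes fell), and their median difference was −1.02, beside 0.11 over all genes. Sst, the somatostatin transmitter of itch neurons, fell by 3.15 (SE 0.48; limma, adjusted p = 1.17e-04), and Il31ra, a subunit of the itch cytokine receptor, fell by 2.71 (SE 0.53, adjusted p = 7.05e-04). The log2 difference was −2.94 for A3galt2 and −2.62 for Agtr1a, an angiotensin receptor (limma, adjusted p = 0.00153 and 5.22e-04). Scn11a, the sodium channel NaV1.9, fell from 29976 ± 6922 to 7967 ± 2685 normalized counts (SD, n = 3), a log2 difference of −1.94 (limma, adjusted p = 6.50e-05). Plxnc1, a semaphorin receptor, fell by 1.05 and Gfra1, a co-receptor for the growth factor GDNF, by 0.56 (limma, adjusted p = 0.00212 and 5.47e-04). Not all genes that define the class passed the threshold. Ret, the receptor tyrosine kinase of this lineage, stood at 37086 ± 5976 and 41047 ± 3008 at 12 and 48 h, and P2rx3, the ATP-gated channel, at 16952 ± 2963 and 19557 ± 1224. Their differences of 0.16 and 0.22 did not pass, and neither did those of Gfra2 (−0.47) and Runx1 (−0.29), with limma adjusted p of 0.227, 0.184, 0.176 and 0.151.

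In HET the course of these 24 genes differed by time. By 24 h, 13 fell and 1, Osmr, rose, with 5.76% of all genes called lower and 13.1% higher, and the median difference was −1.02. Lpar3, a lysophosphatidic acid receptor, fell by 1.88 and Grik1, a kainate receptor subunit, by 1.68 (limma, adjusted p = 0.00167 and 0.00265). The call of Osmr was lost with the authors' other adjusted columns, and without HET 12 h replicate 1 or 2 or HET 24 h replicate 1 or 5. The count of 13 was 7 without HET 12 h replicate 2 and 8 without HET 24 h replicate 1. By 48 h, 7 fell, including Sst by 2.01 and Scn11a by 1.03 (limma, adjusted p = 0.0178 and 0.0235), and the median was −0.56. That count was 10 without HET 48 h replicate 3 and 0 without HET 12 h replicate 2, HET 48 h replicate 1 or HET 48 h replicate 2. Between genotypes at 48 h limma called 0 of 24, with 17 at an unadjusted p under 0.05 (22.0% of all genes) and a median of 0.87, or 0.66 without HET 48 h replicate 3. With the replicate block 15 of the 24 were called higher in HET, where 5.04% of all genes were. With HET 48 h replicate 3 also left out, which drops its WT partner too, 11 were. Without the block the number called higher was 11 without WT 48 h replicate 3, 8 without HET 48 h replicate 2, 7 without HET 48 h replicate 1, 4 with quantile normalization, and 3 without HET 12 h replicate 2 or HET 24 h replicate 1.

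**Figure D4:**
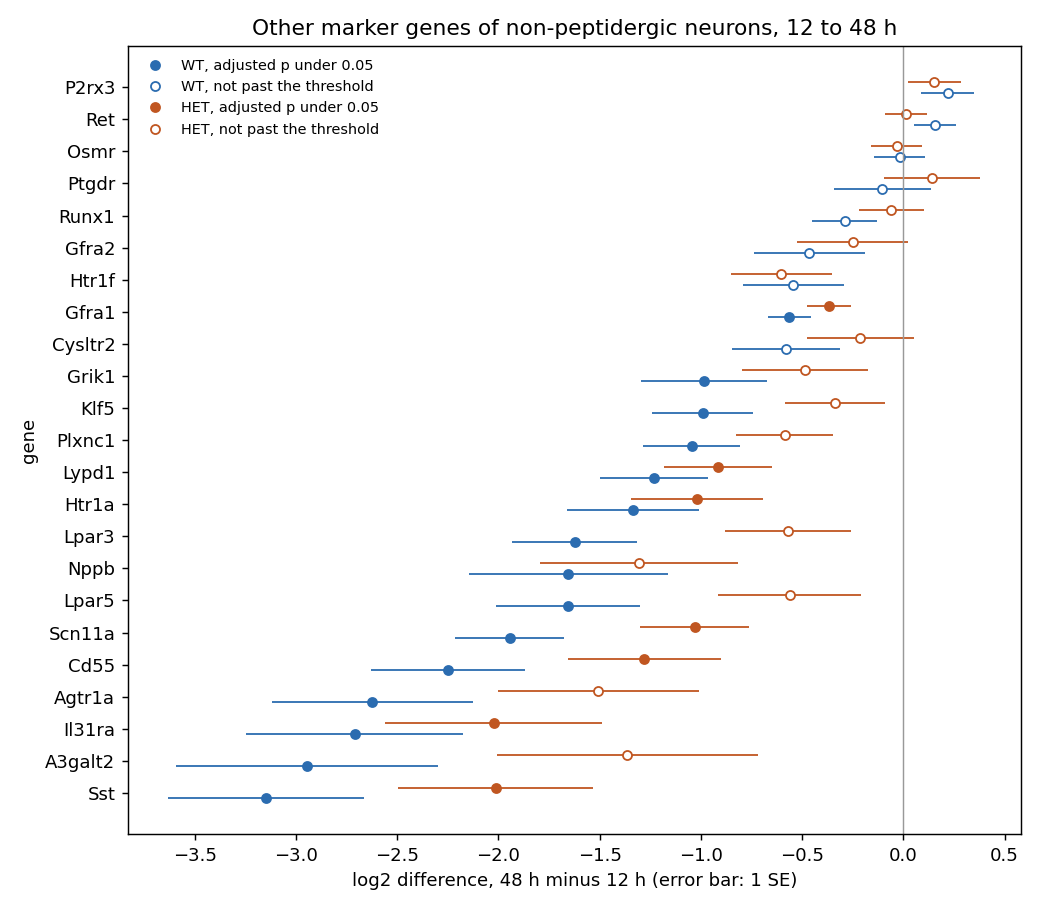
Log2 difference from 12 to 48 h (horizontal axis, bars of 1 SE) for 23 of the 24 marker genes of non-peptidergic neurons other than Mrgpr genes, WT in blue and HET in orange, filled where the adjusted p was under 0.05. In WT 15 of the 23 points are filled and lie left of 0, from −0.56 for Gfra1 to −3.15 for Sst, and P2rx3, Ret and Runx1 are open and near 0.

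The course of Mrgprx1, lower at 24 h than at both 12 and 48 h, was looked for in the other genes after its values had been seen. In HET, 4.69% of all genes had every 24 h culture below every 12 h and 48 h culture, and 7 of the 24 non-peptidergic markers did, among them Gfra2, Lpar3, Grik1, Ptgdr, A3galt2 and Htr1f. Among family genes Mrgpra1 did so. Lpar3 held 2273 ± 496, 622 ± 154 and 1543 ± 370 normalized counts in HET at 12, 24 and 48 h (SD, n = 3), and Gfra2 held 2724 ± 704, 1295 ± 226 and 2305 ± 741. In WT, 1.52% of all genes had that course, and none of the 4 receptors, the 9 family genes or the 24 markers did. It was found in WT for 3 of 8 markers of C-fibre low-threshold mechanoreceptors (Th, P2ry1 and Cacna1h) and for 3 of 16 transcription factors of the lineage (Pou4f1, Zfp521 and Prdm12). In HET the course was not particular to non-peptidergic genes. There it was found for 2 of those 8 markers (Cdh9 and Gfra2, the latter in both lists), 3 of 15 pan-neuronal genes and 4 of 26 receptor signalling genes. It was rarer among peptidergic and myelinated neuron markers, at 1 of 13 each, and found for 0 of 8 macrophage markers.

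Genes of the path below the receptors were measured too, 26 of the 28 symbols listed. In WT from 12 to 48 h, 8 fell and 3 rose, with a median of −0.22, where 17.1% of all genes fell and 30.0% rose. Trpa1, the irritant-gated channel, fell from 3337 ± 781 to 1228 ± 396 normalized counts, by 1.46 on the log2 scale (SE 0.33; limma, adjusted p = 0.00191). Prkce, a protein kinase C, fell by 1.20, and Plcb3, a phospholipase C beta, fell by 0.91 (limma, adjusted p = 6.70e-05 and 0.00299). Gnaq, the alpha subunit of Gq, fell by 0.71 (limma, adjusted p = 0.00367). Arrb1, a beta-arrestin, rose by 0.38, and Gnai2 and Gnb2, subunits of other G proteins, rose by 0.34 and 0.33 (limma, adjusted p = 0.00263, 0.0226 and 0.00521). Trpv1, the capsaicin receptor, had a difference of −0.35 and did not pass (adjusted p = 0.0848). In HET by 24 h, 7 of the 26 fell, among them Plcb3 by 1.11 and Gnaq by 0.74 (limma, adjusted p = 0.00340 and 0.00877), and 2 rose, Plcd3 and Ano1, where 5.76% of all genes fell and 13.1% rose. Without HET 12 h replicate 2 the count of 7 was 4, and the count of 2 was 1 without HET 12 h replicate 2 or 5 or HET 24 h replicate 1. In HET, Plcb3, Gnaq and Trpv1 also had 24 h cultures below all of 12 and 48 h. By 48 h in HET, 2 of the 26 had fallen, Plcb1 and Gnai1 (3.62% of all genes). That count was 6 without HET 48 h replicate 3, 1 without WT 24 h replicate 1, any WT 48 h culture, HET 12 h replicate 1 or HET 24 h replicate 5, and 0 without HET 12 h replicate 2, HET 48 h replicate 1 or HET 48 h replicate 2.

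Other itch receptors and transmitters overlap with the marker list in several genes, Sst, Il31ra, Nppb and Lpar3 among them. Of 24 measured, 8 fell and 1, Il13ra1, rose in WT from 12 to 48 h, where 17.1% of all genes fell and 30.0% rose. Nppb, a natriuretic peptide that carries itch signals, and Lpar5 each fell by 1.66 (limma, adjusted p = 0.0109 and 0.00129). The rise of Il13ra1, by 0.36 (adjusted p = 0.0427), was lost with quantile normalization, with the other adjusted columns, and without any one WT 12 h culture, WT 24 h replicate 1, WT 48 h replicate 2 or 3, or HET 24 h replicate 2. Of 16 transcription factors of the lineage, 6 were called lower and 4 higher in that comparison, the latter a share of the list no larger than that of all genes. Hoxd1 fell by 1.29 and Bcl11a by 0.88, while Pou4f2 rose by 1.89, Isl1 by 1.83 and Cbfb, the partner of Runx1, by 0.78 (limma, adjusted p = 2.08e-04, 0.00629, 0.00373, 4.33e-05 and 0.00109).

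Markers of other cells moved in the same comparison, in which 17.1% of all genes fell and 30.0% rose, and their part in the receptor values was not tested. C-fibre low-threshold mechanoreceptors are unmyelinated neurons that, like those with Mrgprb4, respond to gentle touch. In WT from 12 to 48 h, 2 of their 8 markers measured rose and 2 fell, with a median of −0.15. Fam19a4, a secreted protein of these neurons, rose by 2.11 and Cacna1h, a T-type calcium channel, by 1.30, while Slc17a8, a vesicular glutamate transporter, fell by 0.98 and Piezo2, the touch channel, by 0.89 (limma, adjusted p = 8.66e-04, 0.00386, 9.58e-04 and 2.97e-04). From 24 to 48 h in WT, 4 of the 8 rose and 0 fell, with a median of 0.70, where 17.4% of all genes rose and 10.3% fell. In WT from 12 to 48 h, 9 of 13 peptidergic markers fell and 1 rose, with a median of −0.97, close to that of the non-peptidergic genes. The lists are not fully separate: Nefh is also in the myelinated list, and Fxyd2 and Tac1 were among the genes most like Mrgprd (r = 0.983 and 0.985). Calca and Tac1, the precursors of CGRP and substance P, fell by 0.90 and 1.67 (limma, adjusted p = 0.00153 and 5.74e-04). Of 13 markers of myelinated neurons, 10 fell, Nefh by 0.84 (limma, adjusted p = 0.00232), and 1, Spp1, rose. The count of 10 was 6 without WT 12 h replicate 1. The summed level of 15 pan-neuronal genes was 439662 to 503590 normalized counts in WT at 12 h and 493787 to 541089 at 48 h, with 5 genes higher, Tubb3 by 0.73 (limma, adjusted p = 1.32e-04), and 3 lower, or 1 lower without WT 12 h replicate 2 or WT 48 h replicate 2. In HET that sum was 500692 to 556364 at 12 h and 504682 to 540496 at 48 h. The WT counts of 5 higher and 3 lower are shares of this list near those of all genes. The summed level of 13 satellite glia and Schwann cell markers was 90207 to 118170 at 12 h and 56713 to 61219 at 48 h in WT, where 6 genes fell, Apoe by 2.69 (limma, adjusted p = 8.10e-05). In HET the glial sum was 94231 to 117340 at 12 h and 58704 to 75889 at 48 h. Low sums were found for 8 macrophage markers, 1308 to 1866 at 12 h and 2211 to 3654 at 48 h in WT. The sum of 10 fibroblast and endothelial markers was 13893 to 21162 and 19997 to 29831 at these times, where Col1a2, a collagen gene, rose by 2.87 and Cldn5, an endothelial tight junction gene, fell by 2.76 (limma, adjusted p = 1.03e-04 and 8.43e-05). Of 4 mast cell genes measured, 3 fell, among them Kit, which sensory neurons also express, and no measured marker of these cell types was listed at 0 in any culture.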

How the data were processed

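RNA from 18 cultures was sequenced, 3 for each of 6 groups of genotype and time. Per the submitters' processing notes, CASAVA 1.8.2, edgeR and the mm10 build were used; the aligner and the counting method are not given in the sources used here. Per the file headers, the authors deposited normalized counts, a signal with totals from 41509705 to 41509874 per culture that is no longer whole reads, a second set of adjusted signal columns with totals from 39465712 to 44213485, and FPKM. The authors also deposited log2 fold changes and adjusted p-values between genotypes, which are quoted as theirs. The logarithms of the second set span 15 of 17 possible dimensions, so 2 directions among the cultures had been removed by an unstated step, and the residual degrees of freedom used here may be too many. No column of another sample was found.

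Normalized counts were transformed to log2(normalized count + 1). A minimum mean of 1 per gene removed 0 of 17198 genes. The 6 group means were estimated from the 18 cultures with limma 3.58.1 in R 4.3.3 (lmFit, eBayes with trend; 12 residual and 4.97 prior degrees of freedom), with Benjamini-Hochberg adjustment over all genes of a comparison and a threshold of 0.05. Fold changes of low values are understated on this scale. The fit was tested on simulated data in which every gene varied independently between cultures. Those data held neither removed directions nor a shift shared by many genes of a culture, so the test does not cover these features. The labels do not say that replicate numbers pair cultures, but at 48 h the deviations of every same-numbered WT and HET pair were correlated with an r over 0.1 (0.32, 0.21 and 0.46), so the fit with the number as a block is given beside that comparison. At 12 and 24 h not every pair was, and this reason for the block was taken from the same data. Since the values are not counts, the count tests named as an alternative were not run.

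The receptors and the gene lists were chosen with earlier results of these data known. Genes named are the 4 receptors, every measured family gene, Dynlrb1, the 5 genes most correlated with each receptor, up to 4 called genes of each list with the largest fall and rise from 12 to 48 h in WT, and textbook genes of these neurons; Gnaq, Lpar3, Grik1, Cbfb and the genes with a low at 24 h were added after their values were seen. Some genes this rule names are not reported here. Coding sequences were taken from GENCODE M21 (GRCm38) and promoters from RefSeq. The planned comparison of proteins was replaced by one of coding bases, as protein sequences were not used here.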

Additional observations from a re-analysis of the deposited data

How the results depend on the processing

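The results were recomputed with a pseudocount of 0.1, a mean of at least 5, no filter, the authors' other adjusted columns, quantile normalization, only the cultures of 1 time, and without each culture in turn. Between genotypes, Mrgprd at 48 h passed the threshold with quantile normalization (3.13, limma adjusted p = 0.0430). Leaving out 1 culture gave ranges of −0.56 to 0.061 for Mrgprd, −0.53 to 0.55 for Mrgprb4, −0.71 to 0.37 for Mrgpra3 and −0.78 to 0.18 for Mrgprx1 at 24 h, where the direction was therefore not settled. At 48 h the ranges were 2.02 to 3.68 for Mrgprd (limma adjusted p from 0.0228 to 0.394) and 1.78 to 3.48 for Mrgpra3 (0.0260 to 0.420). From 12 to 48 h in HET they were −3.52 to −1.86 for Mrgprd and −0.49 to 0.11 for Mrgprx1. The number of genes lower from 12 to 48 h in HET ranged from 0 to 4 of the other family genes and from 0 to 10 of the non-peptidergic markers. The cause was not tested. Low levels limit Mrgprb4 and Mrgpra3 at 48 h in WT, where the depth behind values near 1 normalized count is unknown.

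Same-numbered WT and HET cultures of a time had deviations correlated with a mean r of 0.17 over 9 pairs (−0.21 to 0.46), and nothing in the labels pairs them; only at 48 h did every pair exceed 0.1. With the replicate number as a block, the 48 h difference was 3.05 for Mrgprd (limma adjusted p = 0.00105), 2.01 for Mrgprb4 (0.0233) and 2.68 for Mrgpra3 (0.00296), and the average over times was 1.21 for Mrgprd (0.0157) and 1.15 for Mrgpra3 (0.0290), so these 5 passed. Both averages also use the block at 12 and 24 h, where not every pair deviated together, and neither passed without it. None of the 5 is free of the choice of the genes for their fall with time. With the block and without HET 48 h replicate 3, chosen after seeing the data, the 48 h difference was 2.57 for Mrgprd (limma adjusted p = 0.0106), 2.58 for Mrgpra3 (0.0279) and 1.94 for Mrgprx1 (0.0455). That fit compares only replicates 1 and 2, since WT 48 h replicate 3 is left without a partner. The replicate block, which for times uses the 2 numbers shared by 12 and 48 h, gave −3.56 for Mrgprd and 0.24 for Mrgprx1 from 12 to 48 h in HET, 12 non-peptidergic markers lower in that comparison and 15 higher in HET at 48 h.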
